A study of Mus musculus with 6 samples.

Results

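The genes described here are 10 genes of the TEAD and Hippo pathway: Tead1, Tead3, Tead4, Yap1, Wwtr1, Lats2, Ajuba, Amotl2, Ctgf and Cyr61. Their peaks are the regions that the table of all peaks assigns to one of these gene symbols, which gave 16 of the 22188 regions in the table and covered 8 of the 10 genes. Ctgf had 4 of the regions, Amotl2 had 3, Tead1, Wwtr1 and Cyr61 had 2 each, and Tead4, Yap1 and Lats2 had 1 each. Each region was assigned to the gene with the nearest start site, which does not show that it acts on that gene. No region carried the symbol Tead3. Ajuba appeared only under its older symbol Jub, with 3 regions, which are described as Ajuba and counted apart from the 16 unless stated.

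The Hippo pathway is a kinase cascade that restrains the coactivators YAP (Yap1) and TAZ (Wwtr1). The kinases LATS1 and LATS2 phosphorylate both coactivators, which are then held in the cytoplasm or degraded. When the cascade is inactive, YAP and TAZ enter the nucleus, where they lack DNA-binding domains of their own and are carried to chromatin by the TEAD transcription factors. Ctgf and Cyr61, which encode secreted matricellular proteins, are classic targets of the YAP/TAZ–TEAD complex in fibroblasts. Amotl2 and Lats2 are also targets of that complex, and their products inhibit YAP.

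Binding was measured by ChIP-seq with an anti-V5 antibody in murine embryonic fibroblasts (MEFs) of a C57BL/6 background that lacked endogenous KLF3 (Klf3-/-), a zinc finger repressor of the Krüppel-like family. All cells compared carried this knockout and differed in the V5-tagged rescue construct, which was delivered by retrovirus: full-length KLF3, ΔDL, a KLF3 mutant in the motif that contacts the corepressor CtBP, or DBD, the zinc finger DNA-binding domain without the N-terminal functional domain. Each construct was studied in a selected clonal line, so that construct and clone cannot be told apart. Each construct was immunoprecipitated in 2 replicates, each with its own input, and no cells without a V5 construct were used here as a control. The height of a region is the log2 of the tags in 400 bp. Tags are the aligned reads that the deposited values count, which were fewer than the mapped reads the authors report for every library. For a height, both replicates of a construct are combined and scaled to 100 M tags. A height therefore has no replicate error of its own, and at uniform coverage of the genome it would be 3.91. The peaks of each replicate are also listed separately, with a score equal to the tags in the peak per 100 M tags.

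With both replicates combined, KLF3 had 23.3 M tags, ΔDL had 11.8 M and DBD had 16.0 M. The replicates ranged from 1.77 M tags (ΔDL replicate 1) to 18.1 M (KLF3 replicate 2). In the ΔDL replicate 1 list the lowest score of any peak was 227, which is 4 tags, whereas the lowest score was between 68.4 and 95.5 in the other 5 lists. A region missing from that list may thus still have been occupied at a level that the other lists called. At the 2334 regions listed as peaks of all 3 constructs, the median height of ΔDL was 1.06 above that of KLF3 and the median height of DBD was 0.42 above it. Differences are given on the deposited scale. Beside counts of 2-fold differences in ΔDL stands the count after moving each construct to a common median over those regions. Those regions had to be called in both ΔDL lists, including replicate 1 with its lowest score of 227, a choice that may favour a high ΔDL height. Its part in the 1.06 was not tested.

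Sequences of 7 regions that the results turn on are printed here from the mm9 genome, 5′ to 3′, with capitals marking every match to 1 of 3 short patterns on either strand. The KLF pattern was any of 4 hexamers, which are ACACCC with its variant CCACCC as well as ACGCCC with its variant CCGCCC. The TEAD pattern was GGAATG, and the AP-1 pattern was TGACTCA, which reads TGAGTCA on the opposite strand. None of the patterns is contained in another. A match describes the letters of the sequence and does not show that a factor was bound there. The first 2 are the member regions with the highest KLF3 height, both also listed for ΔDL: the Cyr61 region 3.5 kb upstream of the start site (chr3:145316367-145316566, plus strand, intergenic) and the region in intron 5 of Amotl2 (chr9:102628637-102628836, plus strand). The Cyr61 stretch holds 4 KLF matches, and the Amotl2 stretch holds no match to any of the 3 patterns.
Cyr61 upstream: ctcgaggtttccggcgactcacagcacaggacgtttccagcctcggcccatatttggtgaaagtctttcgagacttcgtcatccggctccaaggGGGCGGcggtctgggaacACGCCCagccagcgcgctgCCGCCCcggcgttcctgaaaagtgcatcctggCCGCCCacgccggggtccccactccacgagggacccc
Amotl2 intron 5: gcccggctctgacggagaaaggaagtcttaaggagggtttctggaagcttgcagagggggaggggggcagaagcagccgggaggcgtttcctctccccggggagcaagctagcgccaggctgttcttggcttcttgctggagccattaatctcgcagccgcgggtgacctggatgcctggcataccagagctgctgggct
The next 2 are Ctgf regions in which the TEAD pattern recurs. The promoter stretch (chr10:24315109-24315247, plus strand) ends at the base before the annotated start site and holds 3 TEAD matches, and the region 6.0 kb upstream (chr10:24309198-24309397, plus strand) holds 2 TEAD matches, 1 AP-1 match and 1 KLF match. Both overlap an exon that GENCODE assigns to Gm15270, a long intergenic noncoding RNA gene.
Ctgf promoter: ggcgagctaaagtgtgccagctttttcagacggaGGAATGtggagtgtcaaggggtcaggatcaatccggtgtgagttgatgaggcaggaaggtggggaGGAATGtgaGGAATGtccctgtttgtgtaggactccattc
Ctgf upstream: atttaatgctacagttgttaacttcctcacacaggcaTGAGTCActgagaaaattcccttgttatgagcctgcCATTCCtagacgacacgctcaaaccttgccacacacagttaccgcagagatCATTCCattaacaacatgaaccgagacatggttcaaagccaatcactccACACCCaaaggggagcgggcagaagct
The Lats2 promoter (chr14:58364961-58365126, minus strand, up to the base before the start site) is shown as the member promoter with the largest difference between ΔDL and KLF3. It holds 4 KLF matches.
Lats2 promoter: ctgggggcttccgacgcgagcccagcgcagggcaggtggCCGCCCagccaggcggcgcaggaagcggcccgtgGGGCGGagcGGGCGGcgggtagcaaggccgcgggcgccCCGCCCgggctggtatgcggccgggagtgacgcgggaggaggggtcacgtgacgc
The last 2 are the member regions listed for ΔDL and DBD but not for KLF3, in intron 1 of Tead1 (chr7:119826672-119826871, plus strand) and 129 kb upstream of Ctgf (chr10:24185840-24186039, plus strand, intergenic). Each holds 1 TEAD match, and the Tead1 stretch also holds 1 KLF match near its 5′ end.
Tead1 intron 1: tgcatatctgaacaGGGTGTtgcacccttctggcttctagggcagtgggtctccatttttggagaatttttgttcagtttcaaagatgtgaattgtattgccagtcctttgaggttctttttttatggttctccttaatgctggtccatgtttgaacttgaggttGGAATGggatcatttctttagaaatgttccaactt
Ctgf distal: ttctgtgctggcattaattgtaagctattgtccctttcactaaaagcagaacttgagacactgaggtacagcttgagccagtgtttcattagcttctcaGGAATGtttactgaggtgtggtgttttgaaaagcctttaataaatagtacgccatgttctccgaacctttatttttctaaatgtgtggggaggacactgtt

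KLF3 was listed at the promoter of Tead1, whereas ΔDL and DBD were listed at a second region inside the gene. Tead1 encodes a TEAD family transcription factor. The promoter region (chr7:119822570-119822970, centred 64 bp upstream of the start site, where GENCODE also places an intron of 2310014F06Rik) had KLF3 at 7.75, ΔDL at 7.23 and DBD at 4.76. The KLF3 replicates called it from 9 and 21 tags and ΔDL replicate 2 called it from 11 tags. The region in intron 1 (chr7:119826572-119826972, 3.9 kb downstream of the start site) had a different order, with 6.53 for KLF3, 7.94 for ΔDL and 7.44 for DBD. Both ΔDL lists and both DBD lists held a peak there, with scores of 566 and 127 for ΔDL and 128 and 143 for DBD. KLF3 replicate 1 also held a peak there, with a score of 128 from 7 tags, and KLF3 replicate 2 held none. The scores of ΔDL replicate 2 and KLF3 replicate 1 were thus nearly equal. The ΔDL minus KLF3 difference of 1.41 is in combined height. It also takes in the 10 tags of the shallow ΔDL replicate 1 and the reads of KLF3 replicate 2, the deepest library at 18.1 M tags. The part of each replicate in the difference was not tested.

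Tead4, another TEAD factor, had 1 region at its start (chr6:128250315-128250715, centred 316 bp downstream of the start site and annotated as 5′ UTR). KLF3 stood at 8.05, ΔDL at 7.43 and DBD at 4.74. It was called in all 4 lists of KLF3 and ΔDL, with scores of 164.9 and 182.5 in the KLF3 replicates and 283 and 97.7 in the ΔDL replicates, so the replicates of the constructs overlapped. A second Tead4 region, in intron 1 at 14.9 kb, was called in KLF3 replicate 2 with 18 tags and in ΔDL replicate 2 with 8 tags, but did not enter the table. Tead3, the remaining TEAD gene among the members, was called only in single lists. KLF3 replicate 2 held 2 peaks in its intron 2, with 18 and 16 tags, and ΔDL replicate 2 held 1 peak in intron 1, with 9 tags.

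Both coactivator genes carried a KLF3 promoter peak at which the ΔDL height was about 2-fold lower. Yap1 encodes YAP, and its promoter region (chr9:8004407-8004807, centred 11 bp upstream of the start site) had heights of 8.27 for KLF3, 7.15 for ΔDL and 5.19 for DBD. KLF3 replicates scored 275 and 205, while ΔDL replicate 2 scored 117 and ΔDL replicate 1 had no peak. Wwtr1 encodes TAZ, and its promoter region (chr3:57379688-57380088, centred 56 bp upstream) had heights of 8.46, 7.45 and 5.54 in the same order. Both KLF3 lists held this peak, with scores of 183 and 205, and none of the ΔDL and DBD lists did. The ΔDL minus KLF3 difference was -1.12 at the Yap1 promoter, with a 95% counting interval from -1.96 to -0.33, and -1.01 at the Wwtr1 promoter, with an interval from -1.75 to -0.28. These intervals were computed from the approximate tags behind each height (72 for KLF3 and 17 for ΔDL at Yap1) and cover counting error only, not the spread between replicates. A second Wwtr1 region, in exon 3 of 7 and 74.0 kb from the start site (chr3:57305559-57305959), did not share this order: its heights were 7.31 for KLF3, 7.52 for ΔDL and 4.75 for DBD, with a ΔDL minus KLF3 difference of 0.21 (interval -0.60 to 1.03).

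Among the regulators of the pathway, the Lats2 promoter showed the largest ΔDL difference of the 6 member promoters, and Amotl2 had a region at which both constructs scored alike. LATS2 is a kinase that phosphorylates YAP and TAZ. Its promoter region (chr14:58364827-58365227, 67 bp upstream, within an intron of a longer Lats2 transcript in GENCODE) had heights of 8.05 for KLF3, 6.52 for ΔDL and 5.54 for DBD. KLF3 replicates held 9 and 41 tags there, and no ΔDL or DBD list held a peak. The ΔDL minus KLF3 difference was -1.53 (interval -2.59 to -0.58), from approximately 62 KLF3 tags and 11 ΔDL tags.

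AMOTL2 is an angiomotin family protein that binds YAP and retains it outside the nucleus. Its intron 5 region (chr9:102628537-102628937, 8.6 kb downstream of the start site) was among the highest of the members, with KLF3 at 9.57, ΔDL at 9.26 and DBD at 6.09. The replicate scores were 586 and 431 for KLF3 and 566 and 439.7 for ΔDL, so the constructs could not be separated by their replicates at this region. The Amotl2 promoter (chr9:102619849-102620249, 85 bp upstream, overlapping an Amotl2 exon in GENCODE) had heights of 8.93, 8.38 and 4.75 for KLF3, ΔDL and DBD. Its KLF3 scores of 458 and 315 were both above the 244 of ΔDL replicate 2, and ΔDL replicate 1 had no peak there. Another region, 8.4 kb upstream (chr9:102611535-102611935, intergenic), was listed for ΔDL only, with heights of 6.40, 7.62 and 6.21. The ΔDL scores there were 340 from 6 tags and 146.6 from 15 tags. KLF3 replicate 2 held no peak there, and KLF3 replicate 1 had the same score of 146.6 from 8 tags. At this region, as in intron 1 of Tead1, KLF3 replicate 1 therefore scored no lower than ΔDL replicate 2, although the combined heights differed by 1.22.

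Ajuba, a LIM-domain scaffold protein that binds and inhibits LATS kinases, had 3 neighbouring regions, all listed for KLF3 only. The promoter region (chr14:55196226-55196626, 72 bp downstream of the start site) had KLF3 at 8.67, ΔDL at 7.54 and DBD at 6.42. The first of the regions in intron 1 (chr14:55194430-55194830, 1.9 kb downstream, in a CpG island) had heights of 9.42, 8.16 and 4.97, and the other (chr14:55193011-55193411, 3.3 kb downstream) had 8.36, 7.68 and 4.34. The ΔDL minus KLF3 differences were -1.13, -1.26 and -0.68, and all 3 counting intervals lay below 0. At the region 1.9 kb downstream the KLF3 replicates scored 495 and 420 and ΔDL replicate 2 scored 147. The edge of the promoter region also touched a ΔDL replicate 1 peak of 7 tags, which lies almost wholly outside it.

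The target genes Ctgf and Cyr61 held 6 of the 16 regions, including the highest KLF3 height of all members. The Cyr61 region 3.5 kb upstream (chr3:145316267-145316667, intergenic, in a CpG island) had heights of 9.78 for KLF3, 8.82 for ΔDL and 6.47 for DBD. Its replicate scores were 659.7 and 641.5 for KLF3 and 566 and 332 for ΔDL, and the ranges did not overlap. With 2 replicates against 2, however, the smallest p that an exact permutation test can give is 0.333. The more distal Cyr61 region (chr3:145347832-145348232, 35.1 kb upstream, intergenic) had heights of 9.05, 8.48 and 6.35 for KLF3, ΔDL and DBD. The KLF3 replicates scored 312 and 326 and ΔDL replicate 2 scored 215. The Cyr61 promoter itself was called in KLF3 replicate 1 alone, with 25 tags, and did not enter the table.

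Ctgf had regions of more than one kind. The promoter (chr10:24315009-24315409, 39 bp upstream) was listed for KLF3 and ΔDL with heights of 8.88 and 8.70, and was at 6.22 for DBD. Replicate scores of 348 and 199 for KLF3 and 509.8 and 215 for ΔDL overlapped, and the ΔDL minus KLF3 difference of -0.18 was the nearest to 0 among the member promoters (interval -0.70 to 0.31). The region 6.0 kb upstream (chr10:24309098-24309498) had heights of 8.19, 7.50 and 5.82. The region 22.7 kb upstream (chr10:24292318-24292718, within an intron of Gm15270) had heights of 7.75, 6.14 and 5.29 and the lowest ΔDL minus KLF3 difference of all 16 regions, at -1.61 (interval -2.95 to -0.58). KLF3 replicates held 12 and 21 tags there and no other list held a peak. At the most distal region (chr10:24185740-24186140, 129 kb upstream, intergenic) the 3 heights lay close together, with KLF3 at 6.70, ΔDL at 6.85 and DBD at 6.58. That region was called in both ΔDL lists with 6 and 8 tags and in both DBD lists with 7 and 9 tags, and in no KLF3 list.

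**Figure D1:**
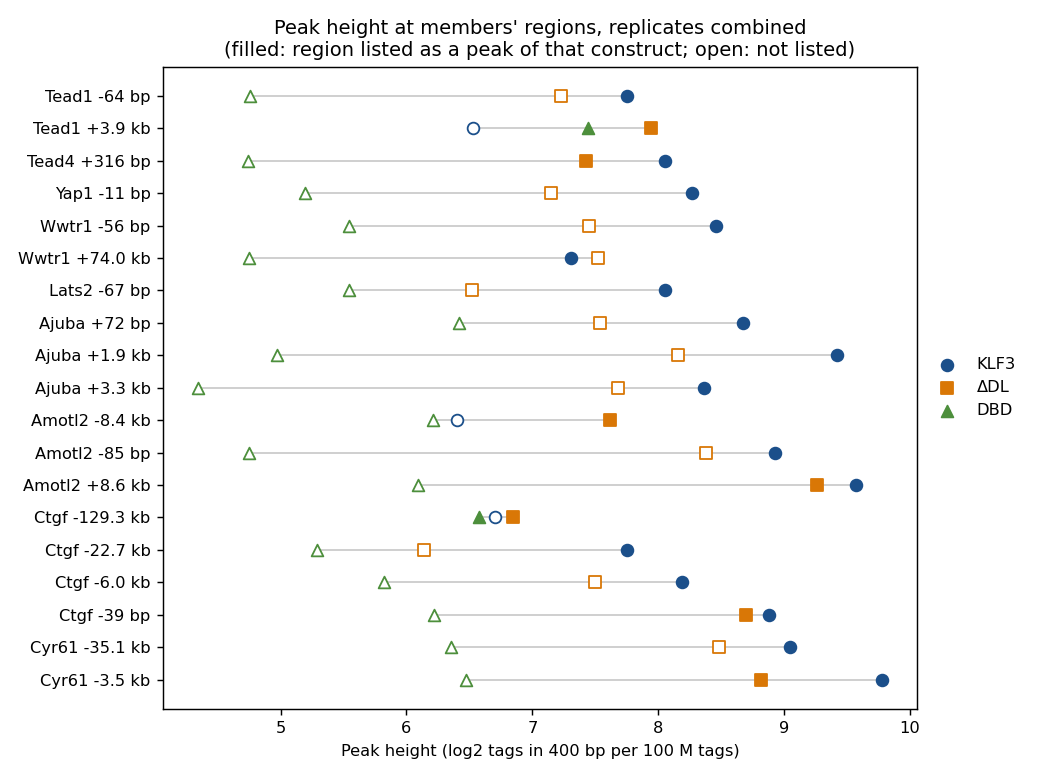
Peak height (x axis, log2 tags in 400 bp per 100 M tags, both replicates combined) of each member region and the 3 Ajuba regions (rows, with the distance from the start site) for KLF3 (circles), ΔDL (squares) and DBD (triangles), filled where the region was listed as a peak of that construct. KLF3 lies furthest right in most rows, from 7.31 to 9.78 where it was listed, and DBD lies at 6.58 and 7.44 in the 2 rows where it was listed.

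Across the members, full-length KLF3 had the highest signal at most regions and DBD the lowest. Of the 16 regions, 13 overlapped a peak in both KLF3 lists (64.1% of all regions in the table), 7 in both ΔDL lists (55.9% of all regions) and 2 in both DBD lists (22.4% of all regions). The DBD height was at least 2-fold below KLF3 at 13 of the 16 regions, against 52.6% of all regions. These were the 13 regions listed for KLF3, a choice that favours a high KLF3 height, and 79.2% of all regions listed for KLF3 met the same threshold. At KLF3 promoter peaks this was 6 of 6 member regions and 98.5% of the 4259 KLF3 promoter peaks, and away from promoters it was 7 of 7 and 70.8%. The DBD heights at the 13 regions ran from 4.74 to 6.47, which is below every KLF3 height there, and at each region the ΔDL height lay above that of DBD. The counting interval of the DBD minus KLF3 difference lay below 0 at all 13, and the count was also 13 after DBD was moved to the common median. Nearly all KLF3 promoter peaks of the table shared this order, so the promoter count says little of the members in particular. The ΔDL and DBD differences share the KLF3 heights as their reference.

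The height in ΔDL was at least 2-fold below KLF3 at 4 of the 16 regions, against 14.8% of all regions and 23.3% of all regions listed for KLF3. Those were the promoters of Yap1, Wwtr1 and Lats2 and the Ctgf region 22.7 kb upstream. Among KLF3 promoter peaks it was 3 of 6 members and 35.0% of the table, and among KLF3 peaks elsewhere 1 of 7 and 18.2%. On the common median these became 6 of 6 and 87.9%, and 6 of 7 and 56.9%. On the deposited scale it was at least 2-fold above KLF3 at 2 of the 16 regions, intron 1 of Tead1 and 8.4 kb upstream of Amotl2, against 28.8% of all regions. The median ΔDL minus KLF3 difference at the 6 member promoters was -0.78, close to the -0.71 of all KLF3 promoter peaks, with a range from -1.53 to -0.18. At the 7 other KLF3 peaks of the members it was -0.62, and -0.12 for all KLF3 peaks outside promoters. The ΔDL height was lower than KLF3 at 12 of the 13 regions listed for KLF3, as it was at 64.0% of all regions listed for KLF3. The counting interval lay below 0 at 7 of the 13 and at 33.0% of all regions listed for KLF3, and being listed for KLF3 itself favours such a difference. After moving ΔDL to a common median over the regions listed for all 3 constructs, 12 of the 16 regions were at least 2-fold lower, against 42.9% of all regions, and none was 2-fold higher, against 0.397% of all regions. All 12 were listed for KLF3, where 66.2% of all regions were 2-fold lower on that scale.

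**Figure D2:**
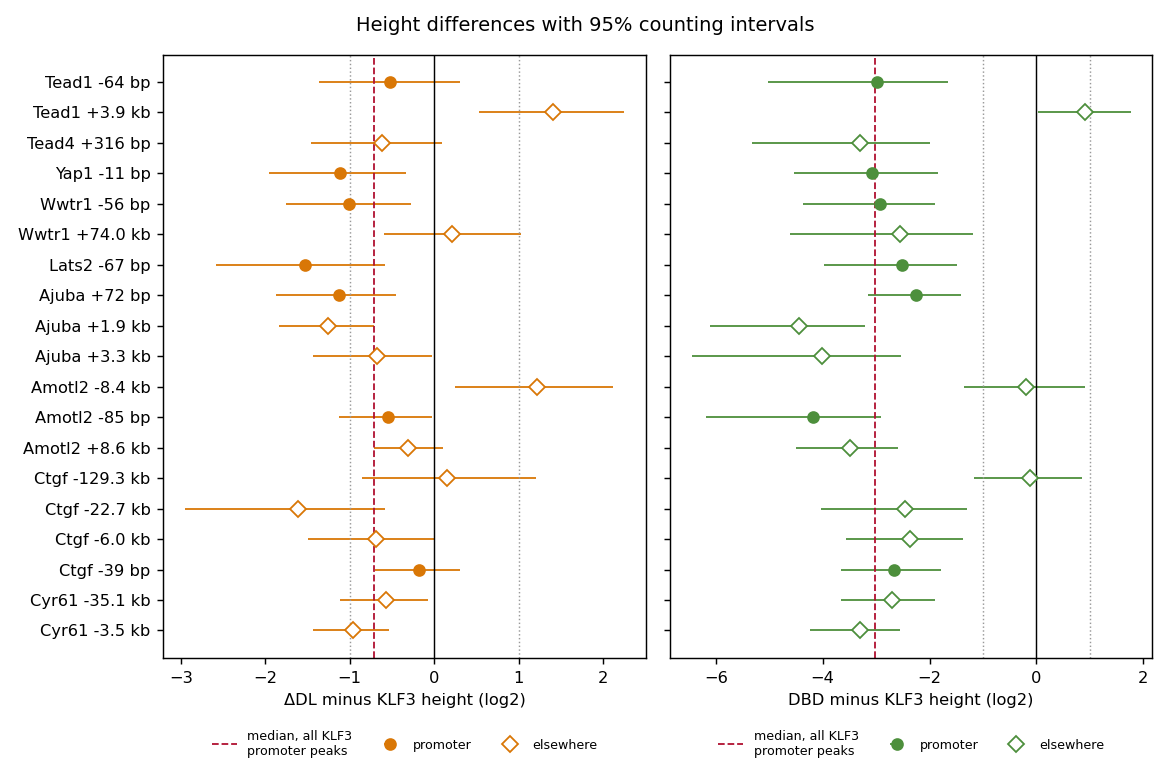
Difference in height from KLF3 (x axes, log2) for ΔDL (left) and DBD (right) at each member and Ajuba region, with 95% intervals for counting error, promoters as filled circles and other regions as open diamonds. Dotted lines mark 2-fold, the dashed line marks the median of all KLF3 promoter peaks (-0.71 and -3.02), and the Tead1 intron 1 region lies above 0 in both panels, at 1.41 and 0.91.

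The members were named for 33 and 25 peaks in the KLF3 lists, 11 and 29 in the ΔDL lists, and 3 and 3 in the DBD lists. Per 1000 peaks of the list, the KLF3 lists held 1.23 and 1.05, the ΔDL lists 0.639 and 0.889, and the DBD lists 0.328 and 0.370. The KLF3 lists averaged 29 ± 5.66 (SD, n = 2) member peaks, the ΔDL lists 20 ± 12.7 and the DBD lists 3 ± 0. The KLF3 and ΔDL counts overlapped (exact permutation test, two-sided, p = 0.667), and the KLF3 and DBD counts did not, where p = 0.333 from the same permutation test is the smallest this design allows. The labels do not say whether the replicates came from separate cultures, so this spread may be technical. ΔDL replicate 1, with 1.77 M tags, held 11 of these peaks, and without it the difference between the KLF3 and ΔDL means was 0 instead of 9 and ΔDL replicate 2 alone held a peak at 13 of the 16 regions. Of the 13 regions listed for KLF3, ΔDL replicate 2 called 10 and ΔDL replicate 1 called 4, and over all regions listed for KLF3 they called 74.6% and 35.2%. At 5 of the 6 regions that only ΔDL replicate 2 called, its score was below the lowest score in the ΔDL replicate 1 list. Only 3 of the 13 regions, the Wwtr1 and Lats2 promoters and the Ctgf region 22.7 kb upstream, were called in neither ΔDL list.

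**Figure D3:**
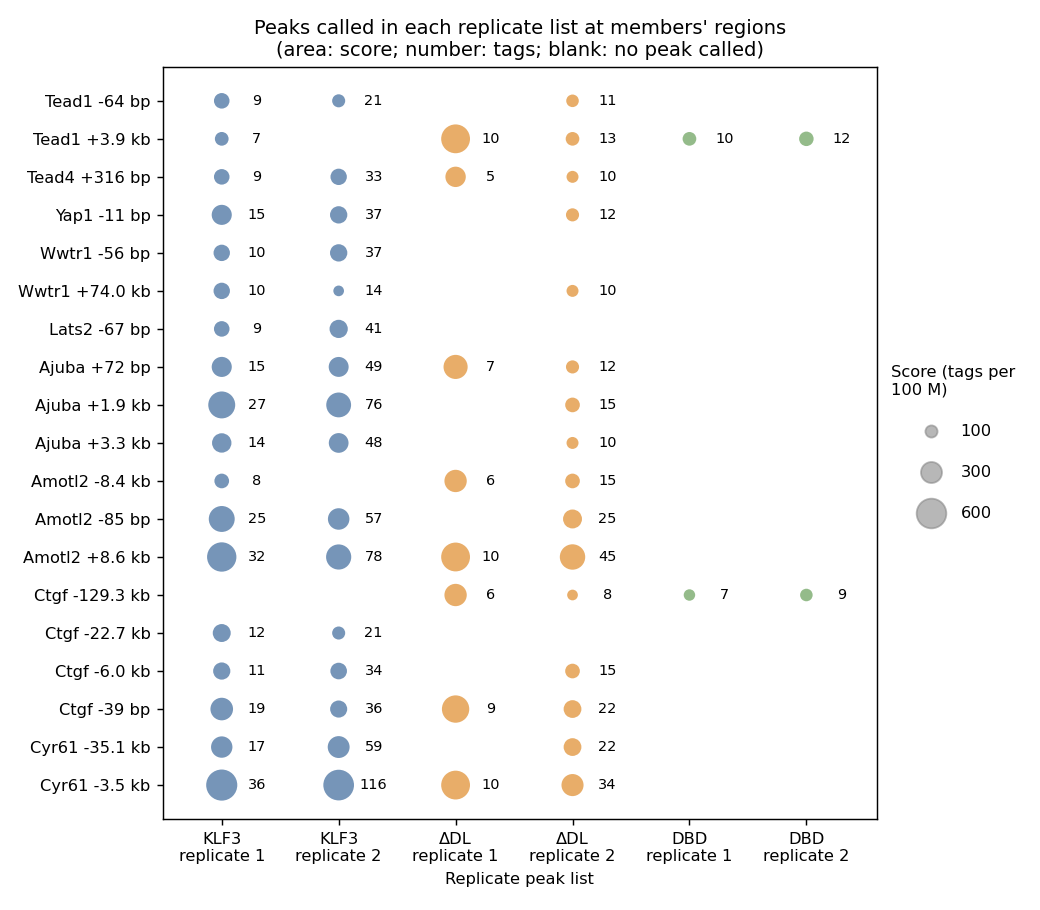
Peaks called in each of the 6 replicate lists (x axis) at member and Ajuba regions (rows), where circle area gives the score in tags per 100 M, the number gives the tags in the peak and a blank means that no peak was called. The 13 member regions listed for KLF3 have a circle in both KLF3 columns, and the DBD columns hold circles in the Tead1 intron 1 and the Ctgf 129 kb rows only.

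Peaks assigned to the members and Ajuba in any of the 6 lists merged into 65 regions, of which 38 were called in 1 list and 27 in at least 2. Tead1 had the most, with 13 regions, followed by Ctgf with 12 and Cyr61 with 11. KLF3 replicate 1 alone accounted for 17 of the regions called in 1 list and ΔDL replicate 2 alone for 10. Of the 65 regions, 19 matched a region of the table, and 1 more, the ΔDL replicate 1 peak beside the Ajuba promoter, only touched the edge of one. Of the other 45, 37 had been called in 1 list. The remaining 8 were called in at least 2 lists, which was in each case no more than 1 list for any construct except for a Tead1 region in intron 1 (20.9 kb), where the peaks lay side by side in a stretch wider than a single peak, with 5 and 9 tags in the ΔDL replicates and 19 tags in KLF3 replicate 2. Regions called in at least 2 lists lay within 1 kb of the start site for Tead1, Tead4, Yap1, Wwtr1, Lats2, Ajuba, Amotl2 and Ctgf.

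**Figure D4:**
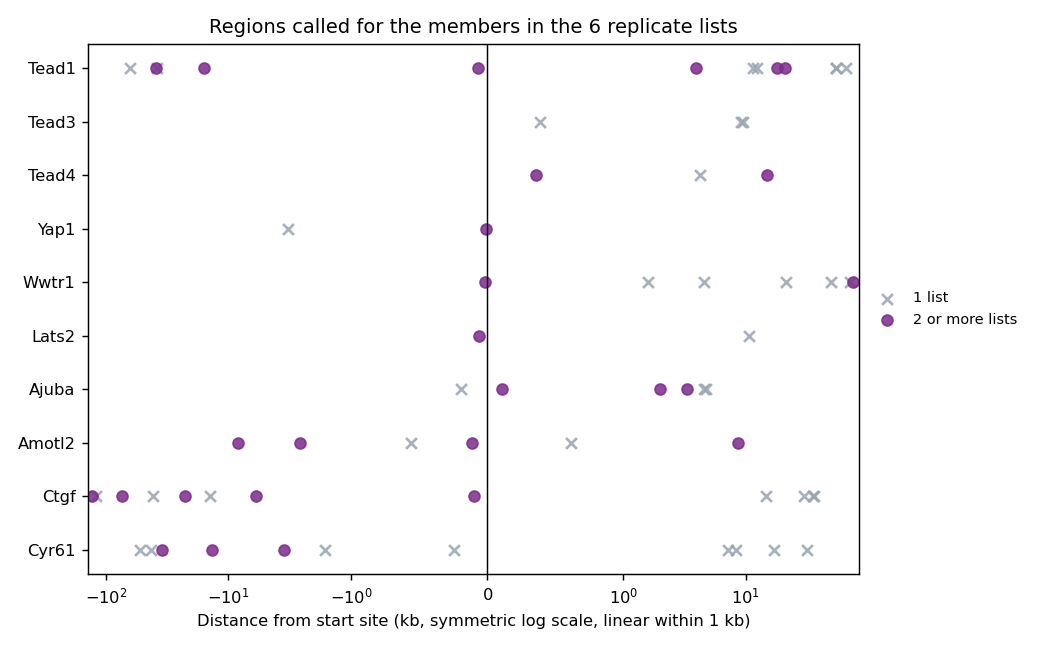
Distance from the start site (x axis, kb, symmetric log scale that is linear within 1 kb) of the 65 regions called for the members and Ajuba (rows) in the 6 replicate lists, with crosses for the 38 regions called in 1 list and filled circles for the 27 called in at least 2. Tead3 has crosses only, and Yap1 and Lats2 each have a single filled circle, at the start site.

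The TEAD pattern occurred in 9 of the 16 member regions within 200 bp around the peak centre, against 13.5% of all regions in the table. Of the 6 member promoters with a KLF3 peak, 5 held it (all but Yap1), and 7.82% of all KLF3 promoter peaks did. The Ctgf promoter and the Tead4 region held 3 matches each and the Ctgf region 6.0 kb upstream held 2, while the Tead1, Wwtr1, Lats2 and Amotl2 promoters, intron 1 of Tead1 and the distal Ctgf region held 1 each. Counts in this paragraph are for whole windows. The printed Ctgf and Lats2 promoter stretches end before the start site and leave out some matches counted here. In 100 bp the count was 5 of 16, against 7.21% of all regions, and in 400 bp it was 11 of 16, against 23.1%. The KLF pattern occurred in 11 of the 16 regions in 200 bp, against 50.2% of all regions. It was in all 6 promoters, as in 94.3% of KLF3 promoter peaks. In 200 bp it was not found in the Amotl2 intron 5, Cyr61 35.1 kb and Ctgf 22.7 kb regions, where both KLF3 replicates had a peak. Of all KLF3 peaks outside promoters, 57.6% held it in that window. In 100 bp the count was 8 of 16, against 40.2% of all regions, and in 400 bp it was 15 of 16, against 60%. All 13 member regions listed for KLF3 held it in 400 bp, beside 76.3% of all regions listed for KLF3. The AP-1 pattern was found in 1 member region and in 12.3% of all regions. The members were chosen as genes of the TEAD and Hippo pathway, some of them targets of the TEAD complex, a choice that may favour the TEAD pattern. These shares describe the sequences and were not tested.

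**Figure D5:**
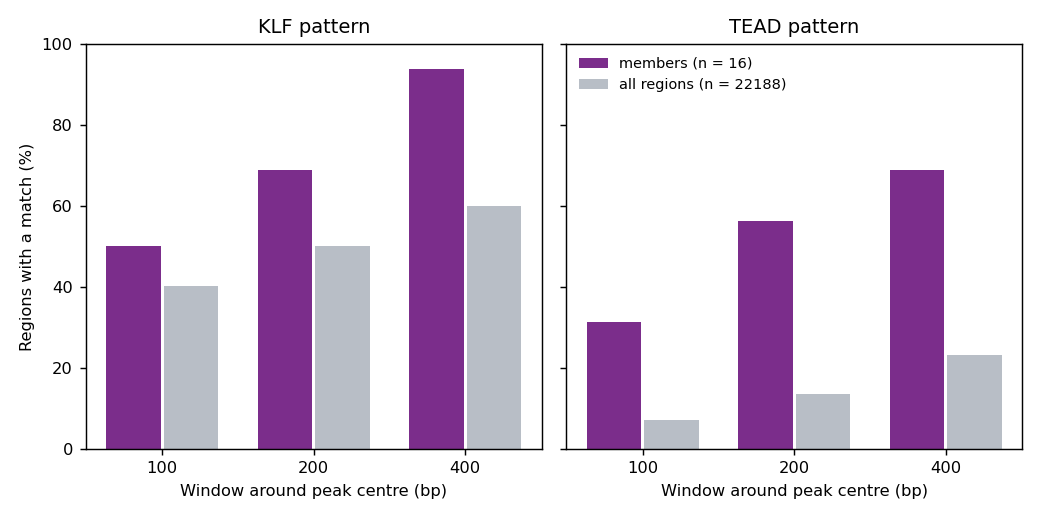
Percentage of regions (y axis) with at least 1 match to the KLF pattern (left) or the TEAD pattern (right) in windows of 100, 200 and 400 bp around the peak centre (x axis), for the 16 member regions (purple) and all 22188 regions of the table (grey). The TEAD pattern is in 31.2%, 56.2% and 68.8% of the member regions and in 7.21%, 13.5% and 23.1% of all regions.

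The KLF3 peaks of the members had higher medians of G+C content and of conservation than KLF3 peaks in general. The G+C content of the 13 regions had a median of 64.1% (range 41.9% to 73.8%), compared with 50.9% for all KLF3 peaks. The mean PhastCons score, which runs from 0 to 1 with increasing conservation, had a median of 0.44 in the members and 0.14 in all KLF3 peaks. Within promoters the medians were 71.2% G+C and 0.585 PhastCons for the 6 members, beside 63.8% and 0.22 for all KLF3 promoter peaks. The Ctgf promoter had the lowest G+C content of the member promoters, at 56.1%. The 2 regions listed for ΔDL and DBD differed in conservation, with a PhastCons score of 0.03 in intron 1 of Tead1 and 0.52 at the distal Ctgf region.

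The other genes of the pathway also carried KLF3 peaks. Of 20 upstream regulators, 18 had a region in the table, 17 had one listed for KLF3 and 9 had a KLF3 promoter peak. Regions of the table were assigned to 10750 gene names in all. The share of all genes with such regions was not computed, so the gene counts here and below say little of the pathway in particular. The 65 regions of these regulators were at least 2-fold lower in ΔDL at 7, 2-fold higher at 18, and at least 2-fold lower in DBD at 40. In the whole table the shares were 14.8%, 28.8% and 52.6%. KLF3 was listed at 45 of the 65. Of all regions listed for KLF3, 23.3% were 2-fold lower in ΔDL and 79.2% in DBD. On the common median the ΔDL counts became 34 lower and 0 higher, against 42.9% and 0.397% of all regions. Of all regions listed for KLF3, 66.2% were lower on that scale. Wwc2, which encodes a KIBRA family activator of LATS kinases, had a promoter region with KLF3 at 9.23, ΔDL at 8.26 and DBD at 5.67. The promoter of Limd1, an Ajuba family gene, had heights of 9.02, 6.48 and 2.53, with a ΔDL minus KLF3 difference of -2.54 (interval -3.52 to -1.59). Frmd6, which encodes a FERM-domain protein upstream of the kinases, had its highest KLF3 region 113 kb upstream at 8.95, where ΔDL was at 9.23 and DBD at 6.81. DBD peaks were assigned to Amot, Fat4, Limd1, Ptpn14 and Wwc1, at distances from 16.7 kb (Limd1) to 546 kb (Amot) from the start site. The highest DBD height among them was 9.25, at the Limd1 region, which lies in the 3′ UTR of another gene model. KLF3 at 8.66 and ΔDL at 8.32 were also high there, although no KLF3 or ΔDL list held a peak.

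Among Tead2 and the Vgll cofactors of TEAD factors, 4 of 5 genes had a region, and all 8 regions were listed for KLF3 and none for DBD. The highest was 47.3 kb upstream of Vgll4, an antagonist of YAP for TEAD binding, with KLF3 at 9.85, ΔDL at 8.20 and DBD at 5.10. The Vgll3 promoter followed with 9.66, 8.12 and 7.14, and a Vgll2 region 75.8 kb upstream had 8.59, 8.79 and 4.70. Vgll3 and Vgll4 held the 2 regions at least 2-fold lower in ΔDL, beside 23.3% of all regions listed for KLF3. On the common median 7 of the 8 regions were lower, beside 66.2%. All 8 were 2-fold or more lower in DBD, beside 79.2% of all regions listed for KLF3.

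All 17 further YAP/TAZ target genes had a region in the table, and 16 had one listed for KLF3. Their 78 regions were at least 2-fold lower in ΔDL at 12, 2-fold higher in ΔDL at 13, and 2-fold lower in DBD at 59. Over all regions the shares were 14.8%, 28.8% and 52.6%. KLF3 was listed at 62 of the 78. Of all regions listed for KLF3, 23.3% were 2-fold lower in ΔDL and 79.2% in DBD. On the common median 41 were lower and 1 higher in ΔDL, against 42.9% and 0.397% of all regions. Of all regions listed for KLF3, 66.2% were lower on that scale. Ankrd1, which encodes a cardiac and muscle ankyrin repeat protein, had the highest at 9.6 kb upstream, with KLF3 at 10.38, ΔDL at 10.34 and DBD at 7.45. A region 94.5 kb upstream of Asap1, which encodes an Arf GTPase-activating protein, had heights of 10.0, 9.76 and 6.84. The highest Myof region, in intron 1, had 9.46, 9.55 and 5.91. DBD peaks were assigned to Axl, Crim1, Dock5, Fjx1, Gadd45a, Igfbp3 and Rbms3. Their distances from the start site ran from 3.0 kb (Axl) to 1067 kb (Crim1), and the Igfbp3 region lay 622 kb away. The median ΔDL minus KLF3 difference was -0.03 over these 78 regions and -0.01 over the 65 of the upstream regulators. It was -0.43 over the 8 of Tead2 and the Vgll genes, -0.56 over the 16 member regions and 0.42 over the whole table. These sets differ in their share of regions listed for KLF3, a choice that favours a low difference. At regions listed for KLF3 the median was -0.62 for the members and -0.35 for the whole table.

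The gene profiles nearest to that of Ctgf, the member with most regions, belonged to Fam109a, Cflar and Palld. Likeness was the distance over 3 values, the gene's median KLF3 height and its median differences of ΔDL and of DBD from KLF3, among 2493 other genes with at least 3 regions. Ctgf had medians of 7.97, -0.44 and -2.41, and Fam109a, Cflar and Palld lay at distances of 0.0846, 0.0846 and 0.0962.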

How the data were processed

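Anti-V5 ChIP-seq was performed in 2 replicates per construct, each with an input. Reads of 50 bp were aligned by the authors to the mm9 genome using Bowtie2 2.0.0, and the authors called peaks per replicate against the input with HOMER 4.1 (SAMtools 0.1.18 and FastQC 0.10.1 are also named in the submitters' processing notes). Each replicate list holds peak scores, a signal scaled by the authors to 100 M tags. They are whole multiples of a step, which gave the tags of each peak and library. The deposited heights are log2 values for both replicates combined. They do not fall on whole tags, so the tags behind a height are approximate. The G+C content is a fraction and the PhastCons value a score, both deposited by the authors for the merged peaks. Inputs were not analysed here.

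Member regions were rows of the table of all peaks with a member's symbol. A region was found in a replicate list when it shared at least 1 bp with a peak. Differences were subtracted log2 heights with 95% exact binomial counting intervals, and 2-fold was the threshold. A two-sided exact permutation test was applied to the counts of the replicate lists. Patterns were matched on both strands of the mm9 sequence in 200 bp around the peak centre, and features at the centre were read from GENCODE vM1 in addition to the deposited annotation. Named genes were every member with every region, per list of other pathway genes the 3 with the highest KLF3 height and those listed for DBD, and the 3 genes nearest to Ctgf in median heights. Overlap and pattern matching were tested on simulated data. The members and lists were chosen with earlier results of these data known. Python 3.11.15, pandas 2.3.3, numpy 2.4.6 and scipy 1.17.1 were used.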

Additional observations from a re-analysis of the deposited data

How the results depend on the processing

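Of 65 alternative values, 55 stayed within the spread or within 1.5 times the value reported, and none reversed a direction; 17 of the 65 (Jub regions counted as Ajuba, an overlap of at least 100 bp, and lists matched by replicate number) were chosen after seeing the data. Moving the constructs to the median of the regions listed for all 3 raised the member regions at least 2-fold lower in ΔDL from 4 to 12, brought those at least 2-fold higher in ΔDL from 2 to 0 and moved the median ΔDL minus KLF3 difference from -0.56 to -1.62. A 1.5-fold threshold gave 7 lower regions, and keeping only regions listed for KLF3 left 0 that were higher, by leaving out both. In the upper 50% of each list by score, the KLF3 minus DBD difference in member peaks was 15 instead of 26, and 4 regions were found in both ΔDL lists and 0 in both DBD lists. The TEAD pattern was in 5 regions at 100 bp. The KLF3 minus ΔDL difference in member peaks ran from 0 without ΔDL replicate 1 to 18 without ΔDL replicate 2, and the KLF3 minus DBD difference from 22 to 30. The values 0 and 18 are among the 55, because the spread of the ΔDL lists (SD 12.7) is larger than the difference of 9. For that difference the tally therefore says little of stability. With 1 list at a time, the regions found ranged from 13 to 15 for KLF3 and from 7 to 13 for ΔDL, and stayed at 2 for DBD. An overlap of 200 bp could not be used, since replicate peaks are at most 143 bp long. With the lists matched by replicate number as a replicate block, the KLF3 minus ΔDL differences were 22 and -4 (mean 9, exact sign-flip permutation p = 1) and the KLF3 minus DBD differences 30 and 22 (mean 26, p = 0.5, the smallest that 2 pairs allow). Nothing ties a number in one construct to the same number in another, and heights could not be matched because they combine both replicates. At the depth of ΔDL replicate 1, 1 tag was worth 56.6 score units, against 5.53 to 18.3 in the other lists.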
